A study of Mus musculus with 8 samples.

Results

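Periosteal endothelial cells, the cells that line the blood and lymph vessels of the outer sheath of long bones, were taken from single-cell RNA counts by the RNA of 6 vessel genes (Pecam1, Cdh5, Kdr, Flt1, Emcn and Egfl7). They numbered 333 of 12253 kept cells, 110 of 6029 on normal diet (ND) and 223 of 6224 on high-fat diet (HFD). A cell was a member when at least 2 of the 6 genes had a unique molecular identifier (UMI, 1 per captured RNA molecule), when their UMIs summed to at least 4, and when Cdh5, Kdr and Flt1 together had at least 1. Cells were left out when collagen and Dcn transcripts reached 0.5% of their UMIs, when the neutrophil transcripts S100a8 and S100a9 reached 2%, or when Rgs5, a pericyte gene, had 5 UMIs or more.

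The study asked how a diet that produces features of type 2 diabetes alters bone and its nerves. Male C57BL/6J mice were fed ND chow or HFD chow for 12 weeks from 4 weeks of age and were 16 weeks old at harvest, with 4 mice listed per diet. The left femurs and tibias were digested with collagenase and dispase, and the cells were captured by droplet. The cells of each diet came in 1 pooled matrix with no record of which mouse a cell came from, so that all values below compare 2 libraries, no test between diets could be made, and all intervals (exact, 95%) cover counting error only.

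Endothelial cells form the wall between blood and tissue and differ along the vessel tree. Capillaries exchange nutrients, and where they serve fat-burning or fat-storing tissue they carry Cd36 and Fabp4, which take up and carry fatty acids, and Gpihbp1, which holds lipoprotein lipase on the vessel wall. Arteries, veins and lymphatics have their own programs, and all endothelial cells answer interferons, the alarm signals of infection and tissue damage, by switching on a shared set of antiviral genes.

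In all, 48558889 UMIs were counted over 6314 barcodes in ND and 49940976 over 6636 in HFD. The members had 611325 UMIs in ND and 1163920 in HFD, with a median of 4230 and 4044 UMIs per cell. The libraries shared 15 barcode sequences, 0 of them among members. Members made up 1.82% (1.50 to 2.19) of kept ND cells and 3.58% (3.13 to 4.07) of kept HFD cells. The intervals did not overlap, but a share depends on which other cells the digestion released, and neither had a replicate. The marker clauses alone passed 130 ND and 242 HFD cells, and the limits on collagen, neutrophil and Rgs5 transcripts then removed 20 and 19. At the edge of the rule, 2 ND and 5 HFD cells had a sum of exactly 4, and 6 and 5 cells that met every other clause stood just outside it with a sum of 3.

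The label was checked against genes that the rule did not use. Of all members, 89.2% had a UMI of Fabp4, 82.6% of Esam, a junction protein, 74.2% of Gpihbp1, 64.6% of Tie1, an endothelial receptor, and 62.2% of Cldn5, a tight junction protein. In 3093 B cells, which were chosen by Cd79a and Cd79b and should lack these genes, the shares were 4.75%, 0.517%, 0.582%, 0.291% and 0.291%, at median depths of 3891 (ND) and 3830 (HFD) UMIs. These B cells include 6 ND and 8 HFD cells that also met the endothelial rule. The rule's own genes were found in members by construction, and their shares only describe the cells: Cdh5 was found in 92.2% of members and 1.00% of B cells, Egfl7 in 92.2% and 4.72%, Flt1 in 88.6% and 0.905%, Kdr in 80.2% and 0.550%, Emcn in 69.7% and 0.485%, and Pecam1, which B cells also make, in 85.9% and 19.7%. Ccl21a, a chemokine of lymphatic vessels, was found in 3.90% of members. Stab2, a gene of sinusoidal endothelium, had 0 UMIs in the members of either library, and the 8 adipocyte markers had 4 UMIs in ND and 5 in HFD together.

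Clustering gave 7 subclusters. From vessel markers 3 of them, of 140, 47 and 30 cells, were named capillary-like and are pooled below, and 1 each was named arterial-like, venous-like and lymphatic-like. Capillary-like cells numbered 66 in ND and 151 in HFD, arterial-like cells 20 and 28, venous-like cells 12 and 18, and lymphatic-like cells 6 and 10. These names come from a clustering without immediate-early and heat-shock genes, which was planned as an alternative. In the clustering planned as the main one, with all genes, a subcluster of 110 cells with capillary markers was led by hemoglobin genes and stayed unnamed, so that the capillary-like share of members was 29.1% in ND and 30.9% in HFD, against 60.0% and 67.7% here. The genes that define a cluster are not results, and the sizes are given without reading a difference in them, since Cd36 and Fabp4, which help to define capillary-like cells, themselves differed between diets. The remaining subcluster of 6 ND and 16 HFD cells carried blood cell transcripts and stayed unnamed. Of these, 4 ND and 8 HFD cells also counted as B cells. Its median was 14756.5 UMIs per cell, it held 22.9% of all member UMIs, and 10 of its 22 cells were among the 5% of kept cells with the highest doublet scores.

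Levels are given below as UMIs per 1000000 UMIs of the class (UPM). Over both libraries, Fabp4 stood at 28660 UPM in capillary-like, 13101 in venous-like, 10181 in arterial-like and 10.4 UPM in lymphatic-like cells. Car4, a carbonic anhydrase of capillary walls, reached 482 UPM in capillary-like cells and 0 in arterial-like and lymphatic-like cells. Mgp, an inhibitor of vessel calcification, reached 4144 UPM in arterial-like and 12.9 UPM in capillary-like cells. Venous-like cells led for Plvap, the diaphragm protein of fenestrated vessels, with 2381 UPM, and for Lrg1 with 709 UPM and the leukocyte adhesion gene Selp with 434 UPM. Lymphatic-like cells held Ccl21a at 37139 UPM, Lyve1, a hyaluronan receptor, at 1908 UPM and Prox1, the transcription factor of lymphatic identity, at 542 UPM, and had 0 UMIs of Flt1. In the plot of marker levels the lymphatic genes stand at or near 0 UPM in the other kinds, while Fabp4 and Cd36 are also abundant in arterial-like and venous-like cells.

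**Figure D1:**
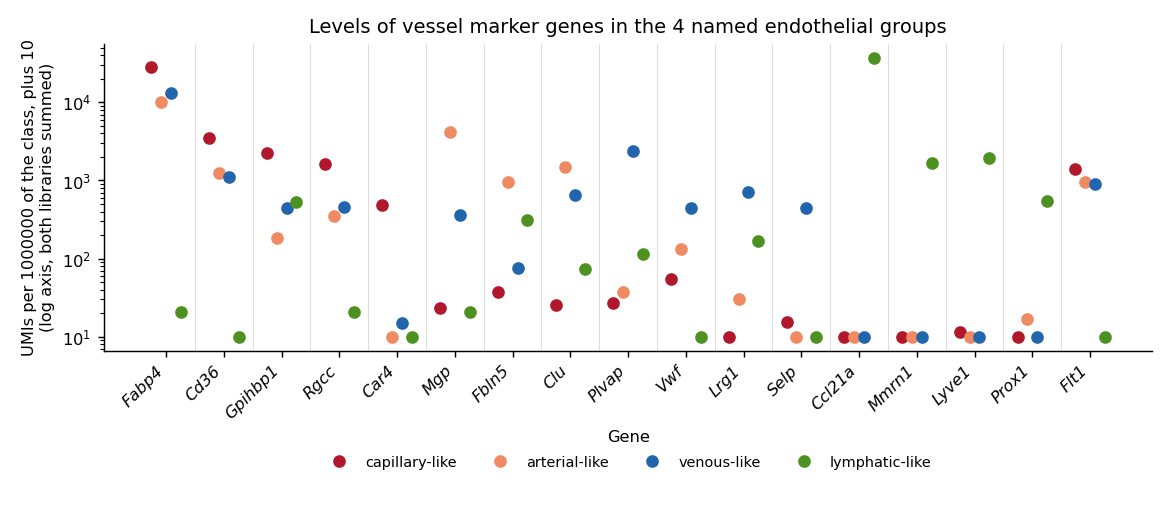
Levels of 17 vessel genes in the 4 named groups of endothelial cells, both libraries summed, on a log axis in UMIs per 1000000 UMIs of the group with 10 added (a point at 10 is a gene with 0 UMIs). Fabp4 is highest in capillary-like cells (28660), Mgp in arterial-like (4144), Plvap in venous-like (2381) and Ccl21a in lymphatic-like cells (37139).

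Each gene was then compared between diets by its UMIs summed per library, as a log2 ratio with HFD on top, and a gene with at least 50 UMIs over both libraries counted as past the fold at 1.5-fold or more. In all members, 440 of 5039 such genes (8.73%) were past the fold toward HFD and 270 (5.36%) toward ND, with a median of 0.04. The highest ratios among genes with at least 200 UMIs included Elane, Prtn3, Mpo, Lyz2, Lgals3 and Tyrobp, genes of myeloid blood cells, which sat in the unnamed cells. Of these, 1 cell gave 1032 of the 1061 HFD UMIs of Elane. Without the 22 unnamed cells Lyz2 had a log2 ratio of -0.67 in place of 3.34. Main results below are therefore also given without those cells, where 246 of 4136 genes (5.95%) were past the fold toward HFD and 191 (4.62%) toward ND, and in capillary-like cells, where 196 of 2561 (7.65%) and 147 (5.74%) were. The same ratios are given for 900 mesenchymal cells, chosen by collagen transcripts, and for the B cells, both from the same pair of libraries. There, 5.78% and 2.29% of genes were past the fold toward HFD, and 2.46% and 4.66% toward ND.

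Many interferon response genes were higher in HFD endothelial cells. Of 31 listed genes, 26 had enough UMIs, 16 of these were past the fold toward HFD and 0 toward ND, and the list's median log2 ratio was 0.69. Without the unnamed cells the counts were 10 of 26 toward HFD and 0 toward ND, with a median of 0.55, and in capillary-like cells 12 of 16 and 0, with a median of 0.87. The shares of all genes toward HFD were 8.73% in all members, 5.95% without the unnamed cells and 7.65% in capillary-like cells. Mesenchymal cells had 3 of 22 listed genes past the fold toward HFD, against 5.78% of all genes, and a median of 0.12. B cells had 2 of 25 toward HFD and 3 toward ND, against 2.29% and 4.66% of all genes, and a median of 0.00. The gene lists were chosen with earlier results of the data known.

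Isg15, a ubiquitin-like protein that is attached to other proteins after interferon, was at 150 UPM (92 UMIs) in ND and 365 UPM (425 UMIs) in HFD, a log2 ratio of 1.27 (0.95 to 1.62). In capillary-like cells its level was 127 UPM in ND and 447 UPM in HFD, with a ratio of 1.80 (1.27 to 2.41). Mesenchymal and B cells gave ratios of 0.28 and -0.74 for the same gene. Their counting intervals (-0.18 to 0.77 and -1.10 to -0.39) did not reach that of all endothelial cells. In 9 ND and 21 HFD mural cells, the contractile cells around vessels, chosen by Rgs5 and related genes, Isg15 had 3 and 22 UMIs and a ratio of 1.29 (-0.25 to 3.86), too few to tell from either. Other interferon genes had as few UMIs there and lay on both sides, with 10 in ND (in 2 cells) and 0 in HFD for Ifi27l2a, 6 and 2 for Irf9, 3 and 5 for Bst2 and 0 and 5 for Psmb8, so that no direction is read from mural cells.

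Ifit3, which binds viral RNA complexes, was at 11.5 UPM (7 UMIs) in ND and 70.5 UPM (82 UMIs) in HFD, a ratio of 2.53 (1.51 to 3.98). Irf7, the transcription factor that amplifies the interferon response, was at 37.6 and 107 UPM, a ratio of 1.48 (0.85 to 2.21). The intervals of both lay above 0 in capillary-like cells too, where the ratios were 2.25 (0.95 to 4.34) and 1.71 (0.81 to 2.89). Ifi27l2a, a small interferon-induced membrane protein, was at 67.1 and 199 UPM, a ratio of 1.56 (1.09 to 2.09) that became 1.04 without the unnamed cells and was 2.91 in capillary-like cells. B cells had 0.57 for this gene. Bst2, or tetherin, which holds budding viruses at the cell surface, was at 384 and 686 UPM, a ratio of 0.83 (0.62 to 1.05), and Rsad2, or viperin, at 81.8 and 166 UPM, a ratio of 1.01 (0.56 to 1.50). Not every listed gene was higher. Psmb8, a subunit of the immunoproteasome, had a ratio of 0.11 (-0.14 to 0.37), and Tap1, a peptide transporter for antigen presentation, stood at 47.4 UPM in ND and 38.7 in HFD, a ratio of -0.30. Leaving out the cell with the most UMIs of the gene in each library gave 1.39 for Isg15, 3.00 for Ifit3, 1.52 for Irf7, 2.26 for Ifi27l2a, 0.87 for Bst2 and 1.09 for Rsad2. With the unnamed cells left out, the ratios were 1.16 for Isg15, 2.44 for Ifit3, 1.17 for Irf7, 0.59 for Bst2 and 1.13 for Rsad2.

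**Figure D2:**
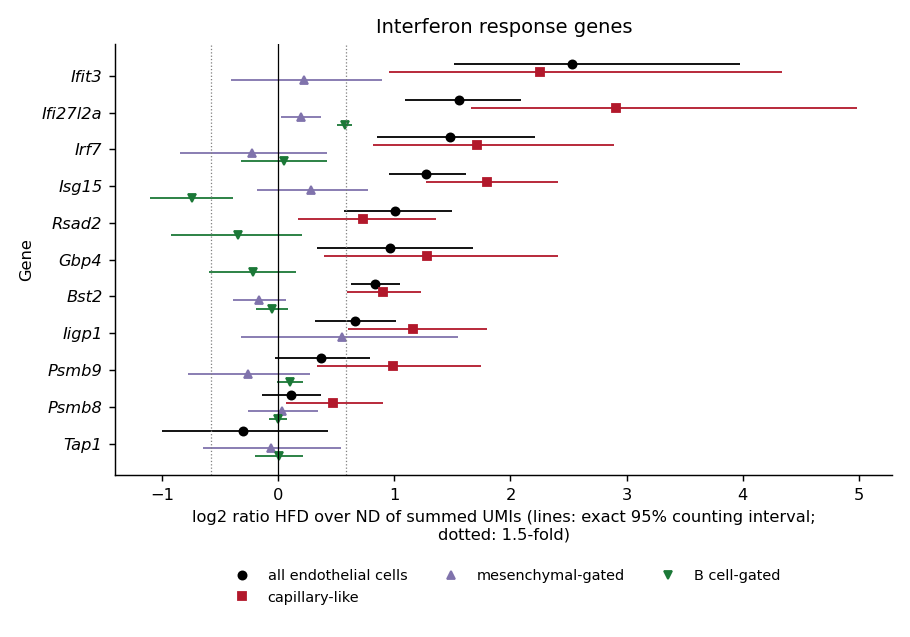
Log2 ratios of HFD over ND for 11 interferon response genes (points) with exact 95% counting intervals (lines) in all endothelial cells, capillary-like, mesenchymal and B cells; points with under 50 UMIs in a class are not drawn, and dotted lines mark 1.5-fold. Isg15 stands at 1.27 in all endothelial cells and 1.80 in capillary-like cells, against 0.28 in mesenchymal and -0.74 in B cells.

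Many genes of this response are known to carry the interferon-stimulated response element in front of them, searched for here as GAAANNGAAA on both strands in the 250 bases before the start. RefSeq promoters of the mouse build GRCm38.p6 were held for 23 of the 31 listed genes. The element was found in 12 of these 23 genes, in 46.2% of their 26 promoters, against 2.98% of 32851 promoters of all genes and 0 of 20 promoters of heat-shock genes. A match describes the letters only. Shown are the stretches around the matches of Isg15, Ifit3, Rsad2 and Bst2, whose levels are given above, and of Ifit1, a relative of Ifit3 at 24.5 UPM in ND and 46.4 UPM in HFD, 5′ to 3′ on the strand of the gene, with the matched letters in capitals and with 40 bases on either side. Isg15 lies at chr4:156200835-156200936 (minus strand) and holds 3 overlapping matches, Ifit3 at chr19:34583333-34583456 (plus strand) with 2, Ifit1 at chr19:34640745-34640853 (plus strand) with 2, Rsad2 at chr12:26456523-26456612 (minus strand) with 1, and Bst2 at chr8:71537547-71537642 (minus strand) with 2 overlapping matches. In Ifit3, Ifit1 and Rsad2 the element is on the opposite strand and reads TTTCNNTTTC.
Isg15: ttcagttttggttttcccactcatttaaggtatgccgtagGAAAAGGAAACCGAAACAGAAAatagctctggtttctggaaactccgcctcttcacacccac
Ifit3: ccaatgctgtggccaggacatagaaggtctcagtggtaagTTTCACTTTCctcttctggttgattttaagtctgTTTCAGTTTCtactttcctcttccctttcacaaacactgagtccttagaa
Ifit1: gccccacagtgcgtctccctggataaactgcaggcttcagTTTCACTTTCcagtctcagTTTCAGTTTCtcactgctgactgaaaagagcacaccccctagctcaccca
Rsad2: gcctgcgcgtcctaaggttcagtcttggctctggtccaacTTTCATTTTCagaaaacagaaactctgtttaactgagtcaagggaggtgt
Bst2: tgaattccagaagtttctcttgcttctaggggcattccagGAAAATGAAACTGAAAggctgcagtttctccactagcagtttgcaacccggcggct

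The response was uneven from cell to cell. Without the unnamed cells, the UMIs of the interferon list made up a median of 19.7 per 10000 UMIs of the cell in 104 ND cells and 27.6 in 207 HFD cells. At or above 50 per 10000, a limit chosen after the values were seen, stood 4 ND cells (3.85%, 1.06 to 9.56) and 51 HFD cells (24.6%, 18.9 to 31.1). The limit marks a range and not a type, since 9 ND and 31 HFD cells lay between 40 and 60. At an equal depth of 2000 UMIs per cell, for which 22 ND and 36 HFD cells were too shallow, the counts were 5 of 82 (6.10%) and 50 of 171 (29.2%).

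High cells were found in every kind of blood vessel. Capillary-like cells at or above the limit numbered 2 of 66 in ND and 38 of 151 in HFD, arterial-like cells 1 of 20 and 10 of 28, and venous-like cells 1 of 12 and 3 of 18. Lymphatic-like cells had 0 of 6 and 0 of 10, and their highest cells stood at 17.4 and 16.8 per 10000. One capillary-like subcluster of 5 ND and 25 HFD cells was led by interferon genes, among them Ifit2, Irf7, Ifit3 and Isg15. Without it, 7.59% of 2174 genes were past the fold toward HFD and 6.44% toward ND in capillary-like cells. There, 3 of 10 interferon genes were past the fold toward HFD and 0 toward ND, with a median of 0.44, and the ratio of Isg15 was 1.15 (0.59 to 1.80), of Irf7 1.16 (0.10 to 2.54) and of Bst2 0.57 (0.24 to 0.92). That interval of Isg15 overlapped the one of mesenchymal cells, which the interval of all endothelial cells did not. Since cells could not be assigned to mice, the number of mice that gave the high cells is not known.

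**Figure D3:**
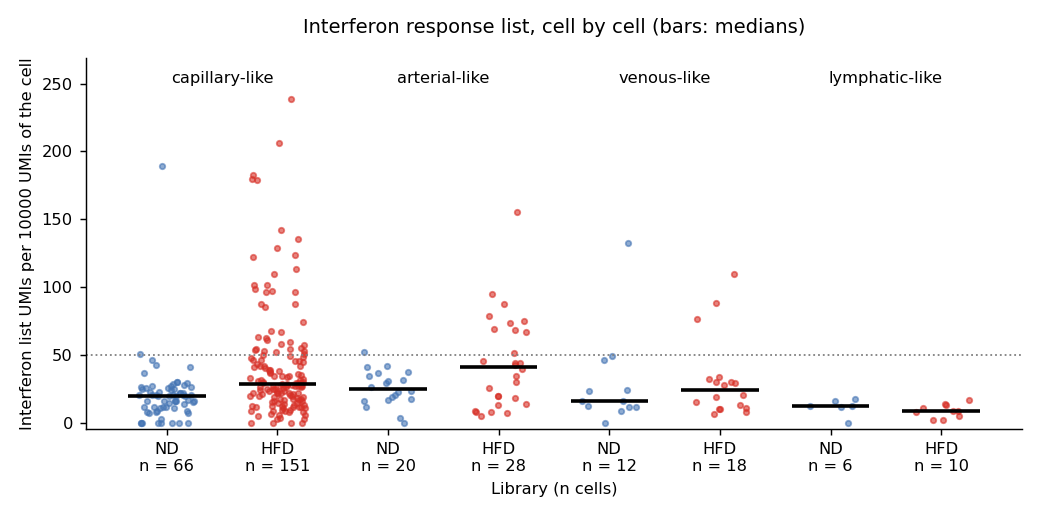
UMIs of the interferon response list per 10000 UMIs of the cell, 1 point per cell, by vessel kind and library, with medians as bars and the limit of 50 dotted. Of the capillary-like cells 2 of 66 in ND and 38 of 151 in HFD stand at or above 50, and none of the lymphatic-like cells does.

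Antigen presentation genes had a median of 0.40 in capillary-like cells, where 2 of 11 were past the fold toward HFD, against 7.65% of all genes, and 0 toward ND. In all members the median was 0.15, with 2 of 16 past the fold in each direction, against 8.73% and 5.36% of all genes. H2-T23, a non-classical class I molecule, was at 258 UPM in ND and 397 in HFD in all members, a ratio of 0.62 (0.36 to 0.89), and H2-K1, a classical one, at 996 and 1215 UPM, a ratio of 0.29 (0.15 to 0.43). Irf1, a transcription factor that also answers interferon, had a ratio of 0.57 (0.32 to 0.84), and Nfkbia, the inhibitor of NF-kappa-B, 0.59 (0.42 to 0.76). Without the unnamed cells, 1 of 14 listed genes was past the fold toward HFD and 2 toward ND, against 5.95% and 4.62% of all genes. The ratios without them were 0.49 for H2-T23, 0.22 for H2-K1, 0.42 for Irf1 and 0.58 for Nfkbia.

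A minority of the genes of fatty acid uptake and handling was higher in HFD. Of 28 listed genes 22 had enough UMIs. Of these, 6 were past the fold toward HFD and 0 toward ND, with a median of 0.24. Without the unnamed cells the counts were 4 of 20 and 0. In capillary-like cells they were 5 of 18 and 0, with a median of 0.30. The shares of all genes toward HFD were 8.73% in all members, 5.95% without the unnamed cells and 7.65% in capillary-like cells. B cells had the same median of 0.30 for this list, and mesenchymal cells one of 0.11. In B cells 6 of 23 were past the fold toward HFD and 3 toward ND, against 2.29% and 4.66% of all genes.

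Fabp4, the most abundant listed gene, was at 12401 UPM in ND and 17956 UPM in HFD, a ratio of 0.53 (0.50 to 0.57) that stays under 1.5-fold. By vessel kind it was at 22283 and 31601 UPM in capillary-like cells (ratio 0.50), at 10019 and 14813 in venous-like (0.56) and at 10717 and 9851 in arterial-like cells (-0.12). The venous-like ratio may not be that of the typical cell, for which values were at hand only over the whole list. The list's UMIs had a median of 152 per 10000 in ND and 91.7 in HFD venous-like cells, with highest cells at 259 and 849. The list's median was 152 in ND and 93.8 in HFD among arterial-like cells, and 382 and 435 among capillary-like cells. Mural cells held Fabp4 at 1078 and 1860 UPM, a ratio of 0.78 (0.42 to 1.17), while their Cd36 was at 340 and 112 UPM, a ratio of -1.59 (-2.54 to -0.67). These 9 ND and 21 HFD cells were allowed 1 UMI of Cdh5, Kdr and Flt1 together. They held the pan-endothelial genes at 501 UPM, against 12543 in capillary-like cells. The part of endothelial RNA in their ratios was not tested. B cells held Fabp4 at 31.5 UPM in ND and 66.6 UPM in HFD, but 163 of their 273 ND UMIs were in 1 cell that also counted as capillary-like. Cd36, the fatty acid receptor, was at 1425 and 2161 UPM, a ratio of 0.60 (0.49 to 0.71), which was 0.51 without the unnamed cells, 0.68 in capillary-like and -0.38 in arterial-like cells. Gpihbp1 was at 1147 and 1152 UPM, a ratio of 0.01 (-0.13 to 0.14), and the lipase Lpl had 0.16 (-0.07 to 0.39).

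Larger ratios were found among less abundant genes of lipid handling. Rbp7, a retinol-binding protein of capillaries, was at 126 UPM in ND and 313 UPM in HFD, a ratio of 1.30 (0.95 to 1.69), and at 73.7 and 372 UPM in capillary-like cells; it was among the leading genes of the interferon-led subcluster, without which its capillary-like ratio was 1.20 (0.36 to 2.23) in place of 2.30. Plin2, which coats lipid droplets, was at 44.2 and 121 UPM, a ratio of 1.43 (0.85 to 2.11) that was 0.83 without the unnamed cells and 1.34 in capillary-like cells. Angptl4, an inhibitor of lipoprotein lipase, had 4 UMIs in ND and 46 in HFD, at the minimum of 50 UMIs. Of the latter, 5 were in 2 lymphatic-like cells. Pparg, the regulator of fat storage that governs several of these genes, had 23 and 75, a ratio of 0.75 (0.09 to 1.52) that was 0.66 (-0.01 to 1.42) without the unnamed cells. Tcf15 and Meox2, transcription factors of fatty acid transport in heart and muscle capillaries, lay slightly the other way, with ratios of -0.33 (-0.50 to -0.16) and -0.32 (-0.65 to 0.02).

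**Figure D4:**
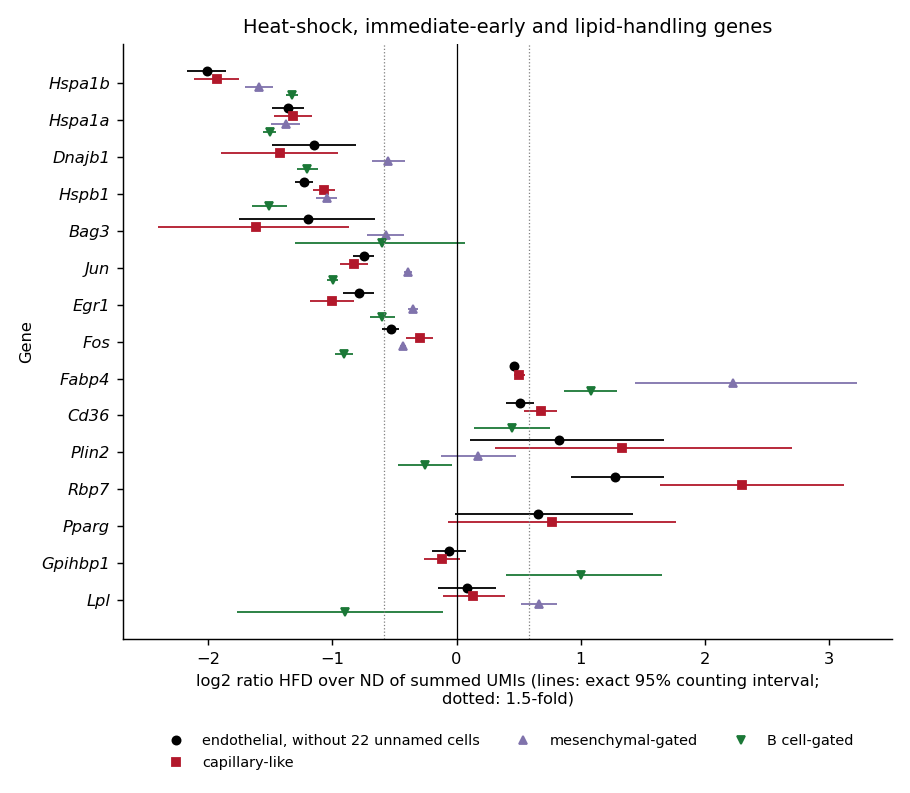
Log2 ratios of HFD over ND for 5 heat-shock, 3 immediate-early and 7 lipid-handling genes with exact 95% counting intervals, in endothelial cells without the 22 unnamed cells, capillary-like, mesenchymal and B cells; points with under 50 UMIs in a class are not drawn and dotted lines mark 1.5-fold. Hspa1b lies below -1 in all 4 classes (-2.01, -1.93, -1.59 and -1.33), while Rbp7 is drawn only for endothelial cells (1.28 and 2.30).

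Several heat-shock chaperones, which refold damaged proteins, were lower in HFD. Of 18 listed genes 15 had enough UMIs, 9 of these were past the fold toward ND and 0 toward HFD, with a median of -0.94. The median was -0.28 without the unnamed cells, with 7 of 15 past the fold, and -0.66 in capillary-like cells, with 8 of 14. The shares of all genes toward ND were 5.36% in all members, 4.62% without the unnamed cells and 5.74% in capillary-like cells. The stress-inducible Hspa1b was at 2164 UPM in ND and 615 UPM in HFD, a ratio of -1.81 (-1.95 to -1.68), and Hspa1a at 2712 and 997 UPM, a ratio of -1.44 (-1.55 to -1.34). Hspb1, a small heat-shock protein that endothelial cells make in quantity, was at 5622 and 2479 UPM, a ratio of -1.18 (-1.25 to -1.11). These ratios were -2.01, -1.36 and -1.23 without the unnamed cells. All 3 were lower in HFD in mesenchymal cells (-1.59, -1.37 and -1.05) and B cells (-1.33, -1.50 and -1.51) too. In mural cells Hspa1b and Hspa1a had -2.52 and -2.62, but Hspb1 had -0.11 (-0.47 to 0.27) and Hspe1 1.24 (0.16 to 2.71). Among the unnamed cells, 1 ND cell gave 476 of the 1045 ND UMIs of Hsp90aa1, whose ratio was -1.60 with these cells and -1.04 without them. The mitochondrial chaperones Hspe1 and Hspd1 stood at -1.43 and -0.94 in all members, and at -0.28 and -0.10 without the unnamed cells. Among genes with at least 200 UMIs, Dnajb1 ranked 7 from the lowest ratio in all members and 5 without the unnamed cells. In mural cells its ratio was 0.03 (-0.83 to 1.02).

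Immediate-early genes, which answer handling and digestion within minutes, were in part lower in HFD. Of 32 tested genes 9 were past the fold toward ND and 1 toward HFD, with a median of -0.41, and without the unnamed cells 9 of 32 and 0, with a median of -0.43. Of all genes, 5.36% were past the fold toward ND and 8.73% toward HFD, and without the unnamed cells 4.62% and 5.95%. The list's medians were -0.38 in mesenchymal and -0.53 in B cells. Jun was at 4402 UPM in ND and 2506 UPM in HFD, a ratio of -0.81 (-0.89 to -0.74), Egr1 at 1660 and 981, a ratio of -0.76 (-0.88 to -0.64), and Fos at 5105 and 3497, a ratio of -0.55 (-0.61 to -0.48). These became -0.75, -0.79 and -0.53 without the unnamed cells. Jun was at 3650 and 2785 UPM in mesenchymal cells, and at 1601 and 801 UPM in B cells. Over the whole list, the median cell stood at 447 per 10000 UMIs in ND and 349 in HFD among arterial-like cells, and at 236 in ND and 237 in HFD among venous-like cells. Cebpb was the gene past the fold toward HFD, with a ratio of 1.52 that was 0.39 without the unnamed cells and -0.79 in capillary-like cells. What part the handling of the 2 libraries had in these ratios was not tested, and diet and library cannot be told apart.

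**Figure D5:**
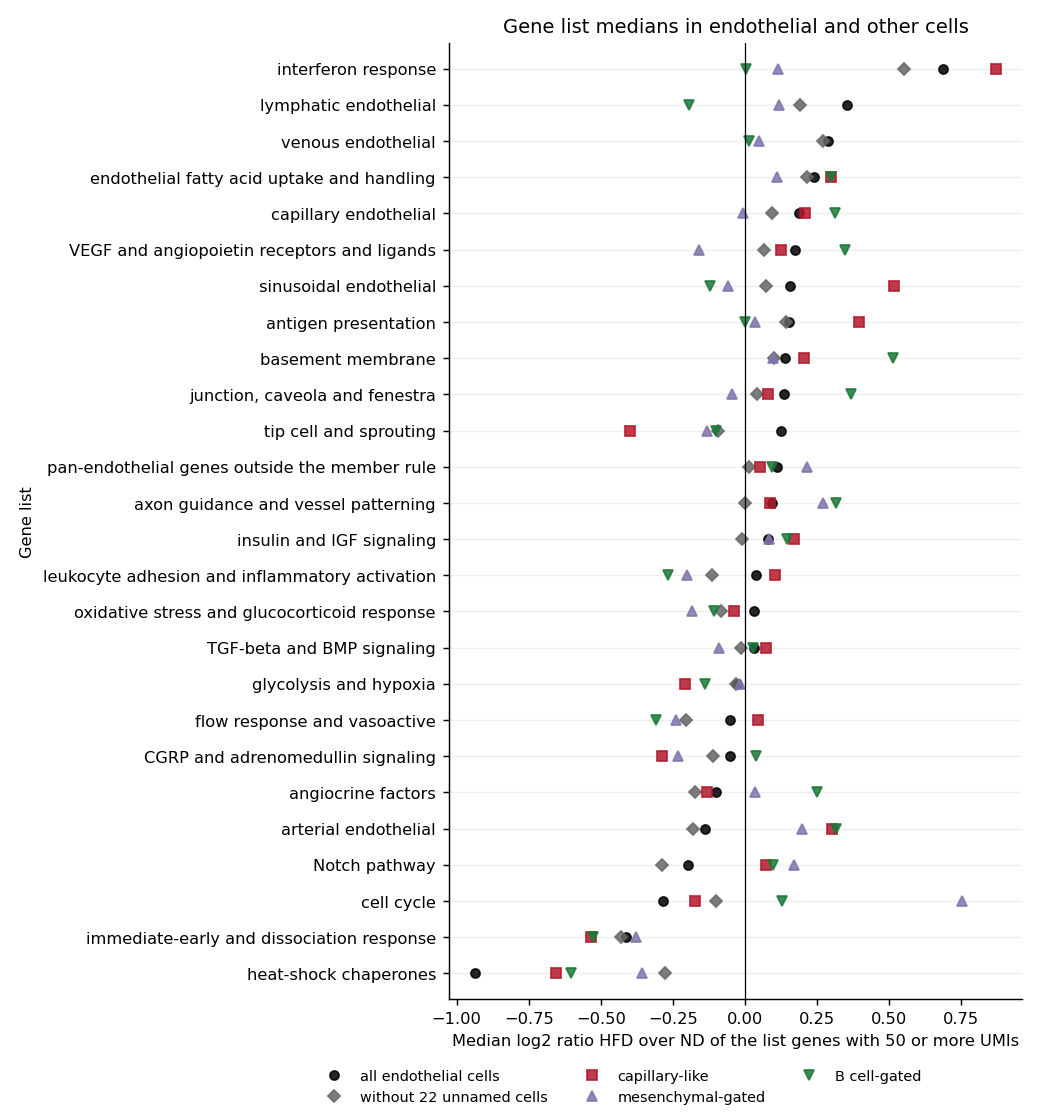
Median log2 ratio of HFD over ND for each gene list with at least 3 tested genes, in all endothelial cells, without the 22 unnamed cells, in capillary-like, mesenchymal and B cells. The interferon list stands highest in all endothelial cells (0.69) and capillary-like cells (0.87), while the heat-shock and immediate-early lists lie below 0 in all 5 classes.

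Among 31 tested pan-endothelial genes that the rule did not use, 0 were past the fold toward HFD and 1 toward ND, with a median of 0.11, against 8.73% and 5.36% of all genes and a median of 0.04. The exception was Sox17, a transcription factor of arterial identity, at 404 UPM in ND and 243 UPM in HFD, a ratio of -0.73 (-0.98 to -0.48). Its relative Sox18 followed with -0.54 (-0.75 to -0.33). Without the unnamed cells 2 of 31 were past the fold toward ND, against 4.62% of all genes. Both were Sox genes, with Sox17 at -0.83 and Sox18 at -0.66. Of 20 capillary genes 3 were past the fold toward HFD, too few to tell from the share of all genes, among them Btnl9 with 54.0 and 103 UPM and a ratio of 0.92 (0.37 to 1.54); the water channel Aqp1 had -0.25 (-0.35 to -0.14).

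The signaling lists are read against the 8.73% of all genes past the fold toward HFD and the 5.36% toward ND, and with so few genes most cannot be told from these shares. Of the VEGF and angiopoietin genes 1 of 11 was, Angpt2, an antagonist of the Tek receptor that loosens vessels, with 7 UMIs in ND and 49 in HFD and a ratio of 1.79 (0.73 to 3.27). Its ratio was 1.80 without the unnamed cells. Tek itself had 0.24 (-0.11 to 0.59). Notch genes counted 0 of 11 in either direction, TGF-beta and BMP genes 0 of 19, and junction, caveola and fenestra genes 0 of 18. Insulin and IGF genes had 1 of 18 in each direction, angiocrine factors likewise 1 of 18 in each, and leukocyte adhesion genes 2 of 14 in each. Axon guidance genes had 2 of 16 toward HFD and 0 toward ND, glycolysis and hypoxia genes 0 of 18 toward HFD and 1 toward ND, and cell cycle genes 4 of 19 toward HFD and 5 toward ND. Without the unnamed cells 5 cell cycle genes had enough UMIs, of which 0 were past the fold toward HFD and 1 toward ND. Of all genes, 5.95% and 4.62% were past it there. Among the genes for CGRP and adrenomedullin, peptides that widen vessels, 1 of 6 was past the fold. It was Adm, which encodes adrenomedullin, at 93.2 UPM in ND and 43.0 UPM in HFD, a ratio of -1.12 (-1.70 to -0.54). Adm had a UMI in 27.3% of ND and 8.07% of HFD cells. In lymphatic-like cells Adm had 2 UMIs in ND and 19 in HFD, the latter in 3 cells, a ratio of 1.49 (-0.28 to 4.92). The ratio of Adm without the unnamed cells was -0.95 (-1.55 to -0.34), and the VEGF, Notch, TGF-beta, junction, angiocrine and glycolysis lists had the same counts as in all members. The adrenomedullin receptor genes Calcrl, at 116 and 147 UPM, and Ramp2, at 725 and 721 UPM, had ratios of 0.33 (-0.07 to 0.76) and -0.01 (-0.18 to 0.16).

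The lowest ratio of all members among genes with at least 200 UMIs was that of Dusp2, a phosphatase of immune cells, at 306 UPM in ND and 81.6 UPM in HFD (-1.90), which became -0.15 (-0.83 to 0.58) without the unnamed cells. Igkc, an antibody light chain, went from -1.02 to -0.77, Stmn1, a gene of dividing cells, from -0.99 to -0.60, and the metal-binding Mt1 from 1.69 to 1.16 when these cells were left out. Cyba, an oxidase subunit, had -0.04 in all members and -0.76 without them.

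Other large ratios without the unnamed cells belonged to genes outside these groups. Depp1, a target of FOXO factors, was at 294 UPM in ND and 94.5 UPM in HFD over all members, a ratio of -1.64, and Tsc22d3, a glucocorticoid target, had -0.66 (-0.97 to -0.34). Both lay below 0 without the unnamed cells, at -1.57 and -0.83, and in capillary-like cells, at -1.52 and -0.71. Pam, the enzyme that amidates peptide hormones, was at 83.4 and 211 UPM, a ratio of 1.33 (0.90 to 1.81), and Zbtb7a, a transcription factor, at 80.2 and 161 UPM, a ratio of 0.99 (0.54 to 1.49), which were 1.20 and 0.87 without the unnamed cells. Igfbp5 had 28 and 202 UMIs, 27 and 154 of them in the lymphatic-like cells, where its ratio was 1.01 (0.44 to 1.68), and 59 in 1 HFD cell. Of the contractile genes, Acta2 had 4 and 249 UMIs, 167 of the latter in 1 arterial-like cell, and Tagln 83 and 506, 207 of them in 1 arterial-like cell. Without the cell with the most UMIs in each library their ratios were 4.13 and 1.89.

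Arterial-like cells, 20 in ND and 28 in HFD, held the 12 mural cell markers at 141 UPM (16 UMIs) in ND and 2775 UPM (511 UMIs) in HFD, and at 1770 UPM over both libraries, against 2216 UPM in venous-like and 128 UPM in capillary-like cells. Single cells carried most of the HFD UMIs: the most abundant gene was Tagln (1 and 208 UMIs), with 207 in 1 cell, and Acta2 had 167 in 1 cell, while Kcnj8, Abcc9 and Higd1b were at 0, and the part of mural RNA in the ratios below was not tested. Of 945 genes, 8.57% were past the fold toward HFD and 8.15% toward ND there. Mgp was at 2393 UPM in ND and 5224 UPM in HFD, a log2 ratio of 1.12 (0.93 to 1.33). In mural cells Mgp was at 901 and 1708 UPM, a ratio of 0.91 (0.52 to 1.34), and over all members its ratio was 0.93, which turned to -0.11 with cells thinned to 2000 UMIs. Cytl1, a secreted cytokine-like protein, was at 326 and 809 UPM, a ratio of 1.30 (0.79 to 1.87). Gkn3, which marks arterial endothelium, was at 194 and 559 UPM, a ratio of 1.51 (0.86 to 2.27), and was found in 8 of 20 and 20 of 28 cells. Of 6 tested basement membrane genes 5 were past the fold toward ND and 0 toward HFD, with a median of -0.87, among them Col4a1 with 484 and 282 UPM (ratio -0.78, -1.35 to -0.20). Sparc, a matrix protein that binds collagen, was at 1417 and 663 UPM, a ratio of -1.09 (-1.45 to -0.75). In all members Col4a1 had a ratio of 0.24 and Sparc 0.02. Of 7 flow response genes 4 were past the fold toward ND, led by Nos3, the endothelial nitric oxide synthase, with 282 and 97.8 UPM and a ratio of -1.51 (-2.45 to -0.65), and Klf2, the main flow-induced transcription factor, with 5754 and 3139 UPM and a ratio of -0.87 (-1.04 to -0.71). Klf2 is also an immediate-early gene and lay at -0.93 in B cells. Without the cell with the most UMIs of the gene in each library the arterial-like ratios were 1.56 for Mgp, 1.82 for Gkn3, -0.78 for Sparc, -0.61 (-1.29 to 0.09) for Col4a1 and -1.55 for Nos3.

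Venous-like and lymphatic-like cells were few, and in venous-like cells the mural gene Tagln had 79 UMIs in ND and 288 in HFD. In 12 ND and 18 HFD venous-like cells Plvap was at 1719 and 2748 UPM, a ratio of 0.67 (0.38 to 0.99), and Nfkbia at 1425 and 2616 UPM, a ratio of 0.87 (0.55 to 1.21). In 6 ND and 10 HFD lymphatic-like cells Ccl21a was at 51400 and 32017 UPM, and Prox1 had 3 UMIs in 2 of 6 cells in ND and 49 UMIs in 10 of 10 cells in HFD. Doublet scores of 8 of the 16 lymphatic-like cells were among the highest 5% of kept cells. Of the ND lymphatic-like cells, 1 also met the B cell limit and held 479 Ccl21a UMIs, of the 486 in all ND B cells and the 1303 in all ND lymphatic-like cells.

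Marker genes of other cells were counted beside these ratios. The 12 mural cell markers summed to 145 UMIs in ND and 970 in HFD, most of them Tagln (83 and 506), with Abcc9 at 0. The 10 macrophage and monocyte markers summed to 84 and 1209 UMIs, led by Lyz2 (52 and 1015), with Ms4a7 at 0, and the 7 blood progenitor markers to 439 and 2469. Over both libraries, the macrophage and monocyte markers stood at 2850 UPM in the unnamed cells. They stood at 112 UPM in capillary-like, 94.0 in arterial-like, 44.9 in venous-like and 93.8 in lymphatic-like cells. The blood progenitor markers were at 5211 UPM in the unnamed cells, and at 627, 598, 604 and 31.3 in those kinds in the same order. This list shares Cd34 with the pan-endothelial list and Mecom with the arterial list. The 9 neutrophil markers, led by S100a9 with 411 and 859 UMIs, summed to 1511 UPM in ND and 1727 UPM in HFD, and the 10 mesenchymal markers to 36.0 and 134 UPM, led by Dcn (7 and 62 UMIs), with Pdgfra at 0. Dcn also had a ratio of 1.24 in B cells. The 8 B cell markers summed to 1801 and 1280 UPM, led by Ebf1 (233 and 511 UMIs). Of these 8, 7 reached 20 UMIs in the unnamed cells. In capillary-like cells 3 did, in arterial-like and venous-like cells 1 each, and in lymphatic-like cells 2. Whether their UMIs in the named kinds came from B cells was not tested. The 7 erythroid markers summed to 252 and 416 UPM, led by Hbb-bs (69 and 220 UMIs). The part of these cells in the ratios of other genes was not tested beyond the values without the unnamed cells.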

How the data were processed

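The authors deposited raw UMI counts per gene and cell barcode, 1 matrix per diet with 32285 genes, made with Cell Ranger 6.0.1 on build mm10 per the labels' processing notes. The study's own filter was applied, which keeps barcodes with over 500 and below 8000 genes and below 20% of UMIs from mitochondria. Scrublet marked 0.261% of kept cells and 0 members, too few to have worked, and removal of the highest 5% of doublet scores was added. UMIs were summed per class and library. Ratios had 0.5 UMIs added per sum, with exact conditional binomial intervals; levels had Poisson and shares Clopper-Pearson intervals, and a count of 0 was taken to allow 3. Members were clustered in scanpy 1.11.5 (1500 variable genes, 20 components, 15 neighbours, Leiden resolution 0.6). Naming took 3 or more detected markers (20 UMIs, and 2-fold over the median subcluster), and no more of another class than of its own among the top 10 genes by fold, limits chosen once the clusters were known; with all genes clustered, 1 capillary-rich cluster stayed unnamed. Mesenchymal cells had at least 1% collagen and Dcn UMIs, and B cells at least 3 UMIs of Cd79a and Cd79b. The ratio and interval steps were tested on simulated Poisson sums. These leave out differences between cells, so the test does not show that the intervals hold where single cells carry many UMIs. The scripts ran in Python 3.11.15 with pandas 2.3.3 and scipy 1.17.1.

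The members and lists were chosen with earlier results of these data known. Named are rule genes and markers, list members with the most UMIs or the largest ratios, and the 10 highest and 10 lowest ratios among genes with at least 200 UMIs; genes that define a subcluster, a few others of the lists, and those of single cells or arterial-like cells, were named after their values were seen. Alternatives were the UMI minimum, scaling, thinning, weighting, doublets, the rule's sum, added UMIs and the fold; values without the unnamed cells, in capillary-like cells and without top cells were added after seeing the data.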

Additional observations from a re-analysis of the deposited data

How the results depend on the processing

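No paired analysis was possible because each diet was deposited as 1 pooled matrix, although the labels number 4 mice per diet, and no replicate could be left out. Single-gene ratios under the alternatives stayed within the counting interval of the reported ratio in 1733 cases and left it in 299. In 13 more a gene past the fold changed sign. The 1733 include 154 at a minimum of 20 UMIs, 111 at 200 and 154 with marked doublets removed. Those settings left the UMI sums of members as they were and could not move a ratio. The interferon median was 0.44 in capillary-like cells without the interferon-led subcluster, where the immediate-early median was -0.65, and lay between 0.54 and 0.87 under the other alternatives. Cells of 1 library are not replicates, and genes with few UMIs cannot show a small difference.

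Genes past the fold toward HFD and ND (440 and 270) numbered 1009 and 741 at a minimum of 20 UMIs, 63 and 39 at 200, 106 and 90 with cells thinned to 2000 UMIs, 108 and 53 at 2-fold, 196 and 147 in capillary-like cells and 165 and 140 in these without the interferon-led subcluster. Toward HFD there were 225 with 5 UMIs added and 246 without the unnamed cells, and toward ND 423 with means over cells. Thinned, the list medians were -0.042 (pan-endothelial), -0.27 (arterial), -0.18 (lymphatic and sinusoidal), -0.44 (flow response), 0.30 (insulin and IGF) and -0.11 (axon guidance). With means over cells they were -0.034 (pan-endothelial), -0.30 (lymphatic), -0.16 (sinusoidal), 0.44 (cell cycle) and -0.14 (axon guidance). The lymphatic median was 0.064 with equal subcluster weights and 1.92 without the highest 5% of doublet scores. The pan-endothelial median was 0.22 at a rule sum of 6 and 0.015 without the unnamed cells, where the heat-shock median was -0.28. In capillary-like cells the medians were 0.30 (arterial), 0.52 (sinusoidal) and 0.40 (antigen presentation). Endothelial shares, thinned, were 1.46% (ND) and 2.90% (HFD). Capillary-like shares of members, 29.1% (ND) and 30.9% (HFD) in the clustering planned as main and 33.6% and 34.5% at resolution 0.3, were 53.6% and 59.6% at resolution 1.0, and 60.0% and 67.7% without immediate-early and heat-shock genes.

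Signs changed, for causes not tested, for Mgp (-0.11), Cd79a (0.25) and Hbb-bs (-0.16) thinned, Prtn3 (-2.51) and Mpo (-2.14) at a rule sum of 6, and Lyz2 (-0.67) and Lgals3 (-0.24) without the unnamed cells. In capillary-like cells they changed for Cebpb (-0.79), Nts (-1.04) and Lyz2 (-0.99), and without the interferon-led subcluster for Cebpb (-0.83) and Lyz2 (-0.94). Cxcl2 had 0.40 without its top cell in each library, of which the ND cell held 40 of 48 UMIs.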
